A study of Mus musculus with 2 samples.

Results

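The 9 genes described here are mouse Asns, Aldh18a1, Pycr1, Gpt2, Got1, Cth, Cbs, Ass1 and Bcat1, enzymes that make nonessential amino acids other than serine and glycine or move amino groups between them. They were chosen by symbol from the gene list shared by both libraries, which held all 9 of them among 27998 genes. The libraries were single-cell RNA-seq libraries of LSK cells (lineage-negative, Sca-1+ c-Kit+ bone marrow cells, the fraction that holds haematopoietic stem cells and early progenitors) from 3-month-old mice, 1 library labelled Trmt6 WT and 1 labelled Trmt6 cKO. TRMT6 is the non-catalytic subunit of the complex that methylates an adenosine of tRNAs (m1A), and the comparison asked how the transcriptome of LSK cells differed when it was deleted.

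The WT library carried the genotype Trmt6fl/fl and the cKO library Trmt6fl/fl, MX1-cre, so both were labelled with floxed alleles. Mx1-Cre is an interferon-inducible recombinase that acts in blood cells and also in other interferon-responsive tissues, and the study describes injections of pIpC, a double-stranded RNA mimic that induces interferon, to activate it. The labels give the WT library no Cre, whereas the study describes Trmt6+/+ Mx1-Cre controls treated alongside, so a share of any difference due to Cre or to pIpC cannot be told apart from that of Trmt6 with these labels. The labels do not state how many mice were pooled into a library.

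With 1 library per group there was no replicate and no test. Every interval below is an exact 95% interval that covers counting error only, so a ratio compares these 2 libraries, not the genotypes. Levels are given in CPM, counts per 1000000 UMIs (unique molecular identifiers, 1 per captured transcript) of the kept cells. These are 3′ tag counts, and no level of one gene was compared with that of another. A ratio is the log2 of cKO over WT, and a gene entered the comparison when it reached 5 CPM in either library. The kept cells numbered 8148 in WT and 8484 in cKO, with medians of 4126.5 and 10010.5 UMIs per cell, so the cKO library was 2.43 times as deep per cell. The libraries shared 24 cell barcodes, 0.271% of those in WT.

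Trmt6 itself was at 63.8 CPM in WT and 50.5 in cKO, with a log2 ratio of -0.34 (-0.41 to -0.27). A 3′ tag need not lie in the deleted part of the gene, so this level is a weak check of the labels. Of the genes that define the sort, Kit was at 64.0 and 21.7 CPM and Ly6a, which encodes Sca-1, at 34.7 and 141 CPM in WT and cKO, so both were present and differed in opposite directions. The libraries also differed in their mix of cells. Summed GMP markers, genes of granulocyte-monocyte progenitors, were at 6528 CPM in WT and 739 in cKO, with all 5 lower by 2-fold or more. Summed LMPP markers were at 337 and 94.0 CPM, with 4 of 6 lower and 1 higher by 2-fold or more, and megakaryocyte markers at 197 and 60.2 CPM, with 3 of 5 lower. HSC markers were at 173 and 240.5 CPM, with 4 of 6 higher by 2-fold or more, and B markers at 70.7 and 87.2 CPM, with 4 of 6 higher. T/NK markers were at 569.7 and 277 CPM, although 3 of 6 were higher and 1 lower by 2-fold or more, and erythroid markers at 37.9 and 18.0 CPM, with 3 of 5 lower and 1 higher. MHC class II genes were at 224 and 253 CPM and mitotic genes at 1454 and 1089 CPM, with none past 2-fold. Neutrophil granule genes were at 5609 and 8.02 CPM, and immediate early genes at 4203 and 1012 CPM, with 9 of 10 lower by 2-fold or more. Every difference below was measured between libraries that also differed in depth, cell mix and these lists, and their part in the enzyme values was not tested beyond the comparisons at equal depth and within marker gates given below.

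Amino acid enzymes of this kind are best known as targets of the amino acid response, in which uncharged tRNA activates the kinase GCN2, translation of ATF4 increases, and ATF4 with C/EBP family partners binds composite elements in the promoters of biosynthetic genes. ASNS makes asparagine from aspartate and glutamine. ALDH18A1 and PYCR1 carry out the opening and closing steps of proline synthesis from glutamate in mitochondria. GOT1 (cytosolic, aspartate), GPT2 (mitochondrial, alanine) and BCAT1 (cytosolic, branched-chain amino acids) are transaminases that pass amino groups to or from glutamate. CBS and CTH form cysteine from homocysteine and serine by transsulfuration, and ASS1 joins citrulline and aspartate on the way to arginine.

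RefSeq promoters (GRCm38.p6, 250 bases before to 50 after the start) were found for 8 of the 9 genes and searched on both strands for TGATGNAA, or TTNCATCA on the other strand, the core of the C/EBP-ATF response element, and for CACGTG, the E-box. The response element core was present in the promoters of Asns, Pycr1 and Got1, 3 of 8 genes, against 3.97% of the 32851 promoters of this length that were searched. None of the 21 other amino acid enzymes with a promoter in the table held it (a description of letters, not of binding). An E-box was present in 3 of the 8, Aldh18a1 at -59, Ass1 at -36 and Cbs at -229, against 7.15% of the promoters searched and none of the same 21 genes, and no match of one motif overlapped a match of the other. The 3 windows with a response element core are shown because they let the reader see the element and its distance to the RefSeq start. Each runs 5′ to 3′ on the gene's own strand, from -125 to -16, where -1 is the base before the RefSeq start, and the capitals mark the match.

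Asns (chr6:7693225-7693334, minus strand): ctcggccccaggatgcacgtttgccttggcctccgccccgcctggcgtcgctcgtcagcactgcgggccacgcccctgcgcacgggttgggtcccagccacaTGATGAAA
Pycr1 (chr11:120643764-120643873, minus strand): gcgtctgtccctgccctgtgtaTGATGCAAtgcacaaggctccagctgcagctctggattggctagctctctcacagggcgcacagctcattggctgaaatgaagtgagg
Got1 (chr19:43524621-43524730, minus strand): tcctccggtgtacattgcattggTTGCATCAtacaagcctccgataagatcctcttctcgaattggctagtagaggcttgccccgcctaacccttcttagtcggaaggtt

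The match in Asns began at -23 and that in Pycr1 at -103, both on the strand of the gene, whereas the match in Got1 began at -102 and lay on the opposite strand. These positions hold for the RefSeq starts. The GENCODE span of Asns begins at 7693254 on the minus strand, so the Asns match lies inside that span. These 3 genes had log2 ratios of 4.15, 2.83 and 1.39. Gpt2 and Bcat1, whose log2 ratios were 3.43 and 5.18, had a promoter in the table without these letters in the window, which says nothing about elements elsewhere.

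Over all kept cells, 7 of the 9 enzymes were higher by 2-fold or more in cKO (Asns, Aldh18a1, Pycr1, Got1, Gpt2, Bcat1 and Cth), and none was lower by 2-fold or more. Of the 9150 genes compared, 2.90% were higher by 2-fold or more and 5.18% were lower by that much. Of the members 8 passed the minimum of 5 CPM, while Cbs, with a log2 ratio of 2.32, was under it in both libraries. Since Pycr1, Gpt2, Bcat1 and Cth passed through cKO alone, the count over the members that passed is not read as support. The median log2 ratio over all 9 was 2.83, beside -0.07 over all genes compared, of which 43.0% lay above 0.

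**Figure D1:**
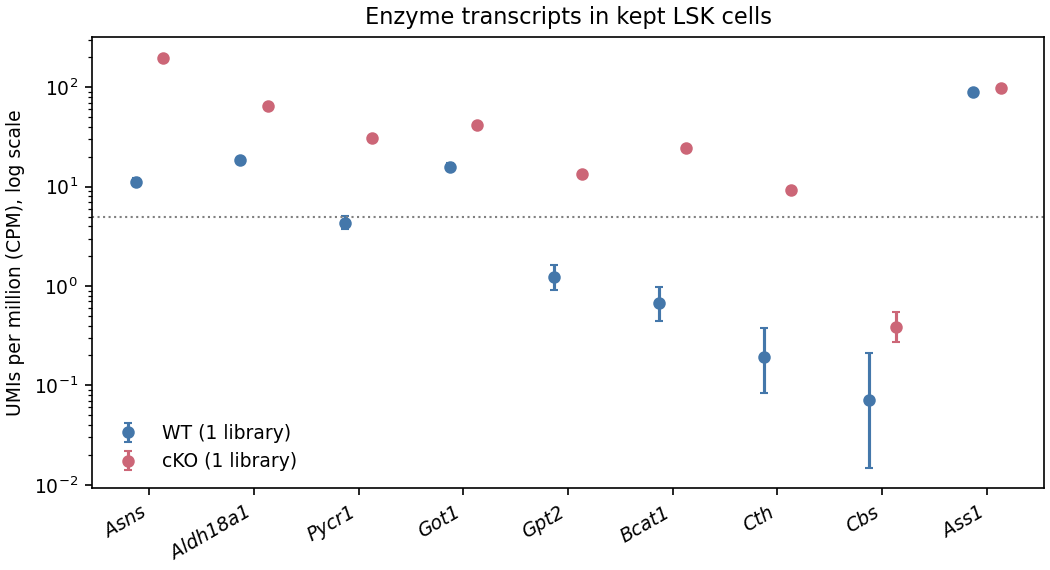
Levels of the 9 enzymes in kept LSK cells, in CPM on a log axis, with WT in blue and cKO in red, 1 library each. Bars are exact 95% counting intervals and the dotted line is the minimum of 5 CPM. The cKO point lies above the WT point for every enzyme, with a gap that runs from 0.15 (Ass1) to 5.53 (Cth) on the log2 scale.

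Asns (chromosome 6, 7675169 to 7693254, minus strand, GRCm38) gave 462 of 41598641 UMIs in WT and 17122 of 86872849 in cKO. Its level was 11.1 CPM (10.1 to 12.2) in the WT library and 197 CPM (194 to 200.1) in the cKO library, and the log2 ratio was 4.15 (4.02 to 4.29). This ranked 19 among the 9150 genes compared, and the intervals of the levels did not overlap. Asns is the only gene of asparagine synthesis in the mouse.

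Both proline enzymes were higher in cKO. Aldh18a1 (chromosome 19, 40550257 to 40588463, minus strand), which encodes pyrroline-5-carboxylate synthase, was at 18.4 CPM (17.1 to 19.7) in WT against 64.6 CPM (62.9 to 66.3), with a log2 ratio of 1.81 (1.71 to 1.93). Pycr1 (chromosome 11, 120635712 to 120643769, minus strand), a mitochondrial pyrroline-5-carboxylate reductase, was at 4.35 CPM (3.74 to 5.03) against 31.0 CPM (29.9 to 32.2), with a log2 ratio of 2.83 (2.62 to 3.06). Pycrl, the cytosolic reductase of the same step, was at 68.7 and 77.7 CPM, with a log2 ratio of 0.18. Prodh, which starts proline breakdown, was at 36.4 and 35.6 CPM, and its log2 ratio of -0.04 had an interval from -0.12 to 0.05. An annotated processed pseudogene, Gm15801, lies within Aldh18a1 and had no row in the matrices, so reads from it, if any, may have been counted with the gene or not at all.

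Of the transaminases, Got1 (chromosome 19, 43499752 to 43524605, minus strand) was at 15.8 CPM (14.7 to 17.1) in WT against 41.5 CPM (40.1 to 42.9), with a log2 ratio of 1.39 (1.27 to 1.51). Gpt2 (chromosome 8, 85492576 to 85527560, plus strand) gave 51 UMIs in WT and 1153 in cKO, or 1.23 CPM (0.913 to 1.61) against 13.3 CPM (12.5 to 14.1), with a log2 ratio of 3.43 (3.03 to 3.87). Bcat1 (chromosome 6, 144993835 to 145076184, minus strand) gave 28 and 2148 UMIs, or 0.673 CPM (0.447 to 0.973) against 24.7 CPM (23.7 to 25.8), with a log2 ratio of 5.18 (4.66 to 5.79). For each transaminase the partner in the other compartment was also in the matrices. Got2, the mitochondrial aspartate transaminase, had a log2 ratio of 0.32 (63.1 and 79.0 CPM), Bcat2, the mitochondrial branched-chain transaminase, 0.45 (36.6 and 50.04 CPM), and Gpt, the cytosolic alanine transaminase, was under the minimum at 4.04 and 4.18 CPM. In each of these 3 pairs the member was higher by 2-fold or more over all kept cells and its partner was not, a difference that was not tested. Between cells of similar depth, described below, Got1 was under 2-fold, with a log2 ratio of 0.49. Antisense genes Gm26666 and Gm15687 overlap Bcat1 on the opposite strand and have rows of their own.

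Both transsulfuration genes gave few UMIs in WT. Cth (chromosome 3, 157894248 to 157925077, minus strand) gave 8 UMIs in WT and 800 in cKO, or 0.192 CPM (0.0830 to 0.379) against 9.21 CPM (8.58 to 9.87). Its log2 ratio of 5.53 carried a wide interval, 4.60 to 6.80, since it rests on the 8 UMIs of WT. Cbs (chromosome 17, 31608894 to 31637238, minus strand) gave only 3 UMIs in WT and 34 in cKO, 0.0721 and 0.391 CPM, and its log2 ratio of 2.32 had an interval from 0.77 to 4.79. Of this pair, then, the WT library held 3 UMIs of Cbs, the count used here as the floor, and 8 of Cth.

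Ass1 (chromosome 2, 31470207 to 31520672, plus strand) stood apart from the other members. It gave 3711 UMIs in WT and 8600 in cKO, or 89.2 CPM (86.4 to 92.1) against 99.0 CPM (96.9 to 101.1). The log2 ratio was 0.15 (0.09 to 0.21), which ranked 2678 among the genes compared, and the interval of each level excluded the level of the other library. Asl, which splits the product of ASS1 into arginine and fumarate, was at 36.1 and 25.6 CPM, with a log2 ratio of -0.49 (-0.59 to -0.40).

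A fixed list of 34 other enzymes of amino acid metabolism served for comparison, of which 33 were matched and 21 reached the minimum. None of the 21 was higher by 2-fold or more and none lower by that much, beside 2.90% and 5.18% of all genes compared. Such counts lie near these shares, so nothing is read from them. In HSC-gated cells, described below, 1 of the 21 that reached the minimum there was higher by 2-fold or more, beside 3.12% of all genes. None was lower by that much, beside 9.06%. Over all kept cells the median log2 ratio of the 21 was -0.10, and 9 of the 21 lay above 0. The highest were Bcat2 at 0.45, Bckdhb, a subunit of the branched-chain keto acid dehydrogenase, at 0.43, and Got2 at 0.32. The lowest was Bckdha, another subunit of that dehydrogenase, at -0.90 (61.0 and 32.6 CPM), followed by Mpst, a sulfur transferase of cysteine breakdown, at -0.56 and Glul, glutamine synthetase, at -0.53. Glud1, which releases ammonia from glutamate, was at -0.29.

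**Figure D2:**
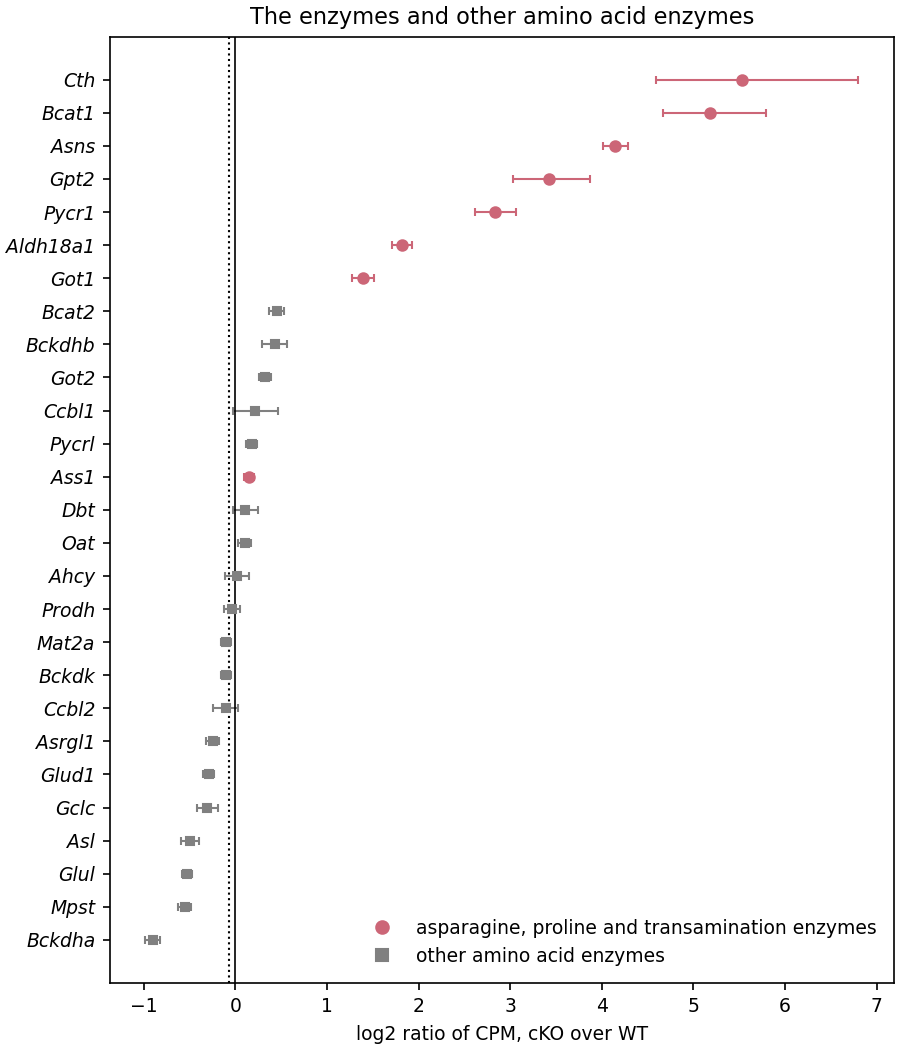
Log2 ratio of CPM, cKO over WT, with exact 95% counting intervals, for the 8 enzymes (red circles) and for 19 of the 21 other amino acid enzymes (grey squares) that reached 5 CPM in a library. The dotted line is the median of all genes compared, -0.07. All members but Ass1 lie at 1.39 or more, and the other enzymes drawn lie between -0.90 and 0.45.

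Genes of the amino acid response itself were read in the same libraries. Atf4, the transcription factor of the pathway, was at 67.0 CPM in WT and 216 in cKO (log2 ratio 1.69). Trib3, a pseudokinase induced by it, was at 2.26 and 159 CPM (6.14), Atf5, a related transcription factor, at 3.05 and 86.9 CPM (4.83) and Ddit3, which encodes CHOP, at 23.0 and 96.1 CPM (2.06). Chac1, a glutathione-degrading enzyme, was at 0.192 and 18.9 CPM (6.56), and Sesn2, a leucine-binding inhibitor of mTORC1, at 2.24 and 24.4 CPM (3.44). All 6 were higher by 2-fold or more, beside 2.90% of all genes compared. Trib3, Atf5, Chac1 and Sesn2 reached the minimum through cKO alone, and the 6 were chosen with earlier results of these data known, so nothing is read from their count.

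The share of cells with at least 1 UMI was read beside the levels. In counts this sparse it largely follows the mean count, as for Cth in cKO at 2000 UMIs per cell (1.58%, mean 0.0164). It therefore does not tell a high level in few cells from a low level in many. Because cKO was deeper, each cell was thinned to 2000 UMIs without replacement, which left out 205 WT and 105 cKO cells and kept 7943 and 8379. Asns was detected in 1.88% (1.59 to 2.20) of the WT cells, against 28.2% (27.3 to 29.2) in cKO. Without thinning the shares were 4.85% and 68.3%. At equal depth the shares thus differed by 26.3 percentage points.

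For the other members the thinned shares in WT and cKO were as follows. Aldh18a1 was detected in 3.56% and 11.7% of cells, Pycr1 in 0.604% and 5.74%, and Got1 in 3.06% and 7.17%. Gpt2 was detected in 0.201% and 2.34% of cells, Bcat1 in 0.113% and 4.27%, and Cth in 0.0378% and 1.58%. For each of these 6 genes the intervals did not overlap. Ass1 was detected in 13.2% (12.4 to 13.9) of the WT cells, against 16.6% (15.8 to 17.4) in cKO, a gap of 3.41 points. Cbs was found in 0 of 7943 WT cells, where the limit was 0.0378% at 3 counts and 0.0464% by the Clopper-Pearson interval, and in 0.0477% of cKO cells (0.0130 to 0.122), so no difference was detectable at this depth. Unthinned, Ass1 was detected in 28.8% and 55.0% of cells and Aldh18a1 in 8.58% and 44.1%. In the 54 neutrophil-gated WT cells, Ass1, Aldh18a1, Pycr1, Gpt2, Bcat1, Cth and Cbs had 0 UMIs. This allows a share of cells of up to 5.56% at 3 counts and 6.60% by the Clopper-Pearson interval. Asns had 13 UMIs there (33.9 CPM, 18.0 to 58.0) and Got1 5 (4.23 to 30.4 CPM). No kept cKO cell was in that gate, so the part of free RNA in the cKO shares was not tested.

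**Figure D3:**
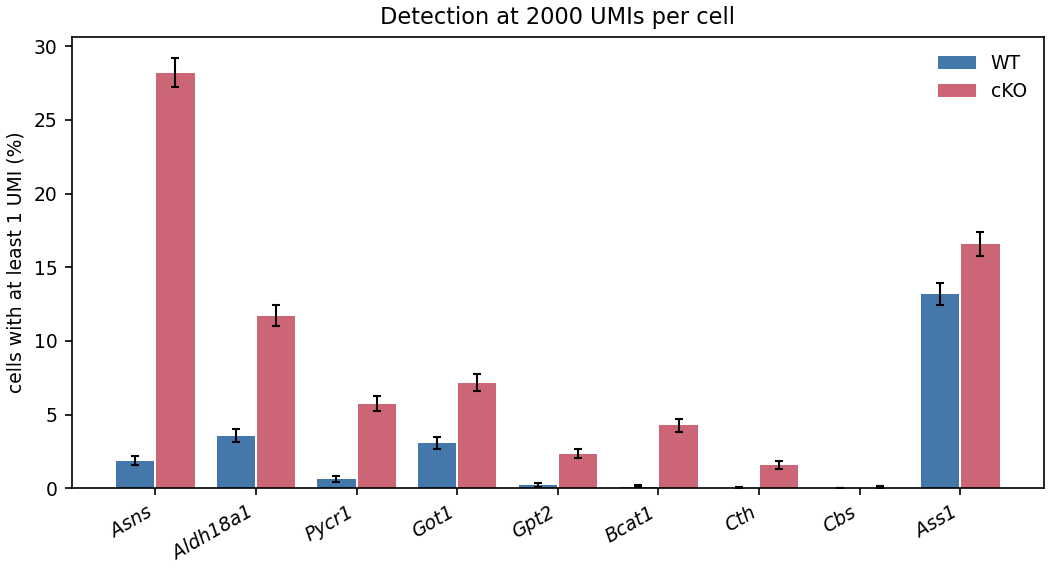
Share of cells with at least 1 UMI of each enzyme after thinning every cell to 2000 UMIs, in percent, WT in blue and cKO in red, with exact Clopper-Pearson 95% intervals. The widest gap is that of Asns, 1.88% against 28.2%, and Cbs is near 0 in both.

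Over single cells, the variance of the thinned counts was set against their mean. Mean counts were low, 0.360 for Asns and 0.0164 for Cth in thinned cKO cells. At such means the ratio lies near 1 even where cells differ, so evenness among cells is not read from it. In cKO the variance of the UMI count over its mean was 1.16 for Asns, 1.05 for Aldh18a1, 1.09 for Bcat1, 1.07 for Cth and 1.06 for Ass1, where a value of 1 is that of Poisson counting. Of the cKO cells 21.8% had 1 Asns UMI, 5.28% had 2 and 1.16% had 3 or more. In unthinned cKO cells, which also differ in depth, the ratio was 2.29 for Asns and 1.86 for Cth, and the highest count in a cell was 15 for Asns and 9 for Cth.

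Cells with several of the 9 enzymes were rare in WT and less rare in cKO. At 2000 UMIs, 79.3% of WT cells and 44.9% of cKO cells had none of them, and 1.84% of WT cells and 18.3% of cKO cells had 2 or more. With Ass1 left out, cells without any of the other 8 made up 90.9% and 53.1%. The correlation between 2 members over single cells was weak in cKO, at most 0.06 (Asns and Bcat1) with a median of 0.01 over 36 pairs in 8379 cells, and at most 0.02 in WT. In counts this sparse such values are no finding.

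**Figure D4:**
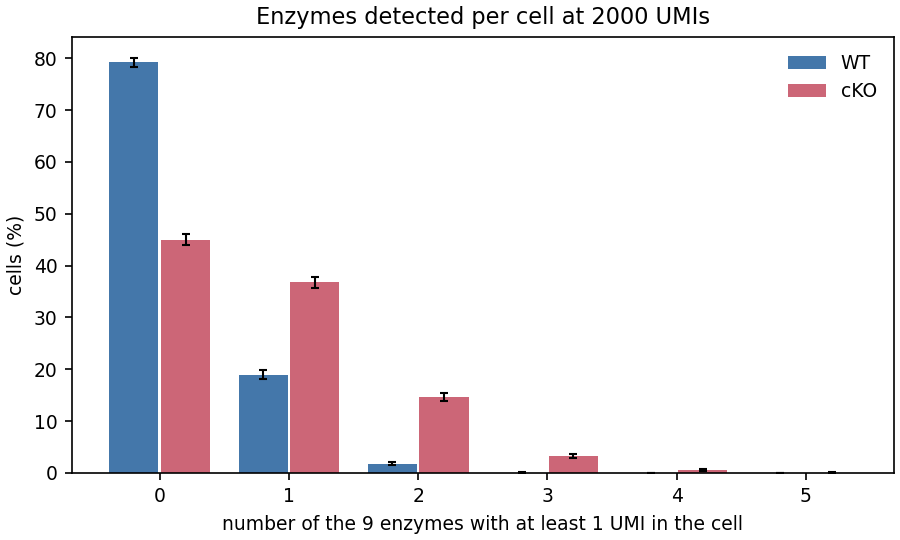
Share of cells by the number of the 9 enzymes with at least 1 UMI, at 2000 UMIs per cell, with exact 95% intervals, WT in blue and cKO in red. In WT 79.3% of cells have none, and in cKO 44.9% have none and 36.7% have 1.

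In cKO, 1936 of the thinned cells had a Trib3 UMI and 6443 had none. Asns was detected in 34.5% of the cells with Trib3 and 26.3% of those without. Bcat1 was detected in 5.73% and 3.83% of these cells, and Cth in 2.48% and 1.30%. The ratio of mean counts, cells with Trib3 over cells without, was 1.91 for Cth, 1.54 for Bcat1, 1.41 for Got1, 1.37 for Asns, 1.24 for Aldh18a1, 1.23 for Gpt2, 1.12 for Pycr1 and 1.11 for Ass1. The intervals of the shares overlapped for Pycr1, Gpt2 and Ass1, and the same ratio over all genes was not computed, so nothing is read from these ratios. Trib3 had a UMI in 58.9% of the unthinned cKO cells against 23.1% after thinning, so many cells without one here had Trib3 RNA that was not sampled. Only 54 WT cells had a Trib3 UMI, too few for the same reading.

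For the members at 50 CPM or more, the genes with the most alike counts over cells of the cKO library were listed. For Asns these were Mthfd2, a mitochondrial folate enzyme (Pearson's r 0.13 over 8379 cells), Eif1 (0.11) and Eif4ebp1 (0.11), with -0.02 to 0.02 in WT. For Aldh18a1 they were Ghitm (0.06), Rcc2 (0.05) and Eif1 (0.05). For Ass1 they were Ppia (0.06), Atp5b (0.05) and Pa2g4 (0.05), for which r in WT was 0.09, 0.05 and 0.05. These points share a library and 1 fixed depth, and correlations this weak in sparse counts are listed only as a description.

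Most of these levels were higher in deeper cells of the same library, although Gpt2 in WT was at 1.40, 0.879 and 1.34 CPM from the shallowest to the deepest cells. When the kept cells of each library were split into 3 parts of near-equal size by their UMI number, Asns was at 8.10, 8.88 and 13.1 CPM in the shallowest, middle and deepest WT cells and at 119.7, 197 and 230.1 CPM in cKO. The deepest WT cells and the shallowest cKO cells of this split had similar depth, with medians of 7435 and 6479.5 UMIs. Between these, Asns was at 13.1 and 119.7 CPM, Aldh18a1 at 19.7 and 52.1, Pycr1 at 6.16 and 21.9, and Got1 at 17.3 and 24.3. Gpt2 was at 1.34 and 10.5 CPM, Bcat1 at 1.08 and 11.7, and Cth at 0.260 and 1.44. The cKO levels of these 7 were higher at similar depth too, with intervals that did not overlap, but for Got1 the difference was under 2-fold there. Of all 9292 genes that reached the minimum in this comparison, 771 were higher by 2-fold or more. Ass1 was lower in cKO there, at 115 CPM (110.2 to 119) in the WT cells against 77.3 CPM (73.2 to 81.6). The parts compared were alike in depth and not matched in cell mix. In WT the median depth was 8801 UMIs in cells gated on GMP markers and 3908.5 in cells in no lineage gate. The part of cell mix in this comparison was not tested. Within cKO, Cth ranged most as a ratio, from 1.44 CPM in the shallowest cells over 5.98 to 14.7 CPM in the deepest.

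Since the mix of cells differed, levels were also compared within classes gated on marker UMIs at 2000 UMIs per cell. A cell was HSC-gated with at least 2 of Procr, Pdzk1ip1, Mllt3, Hlf, Mecom and Fgd5, LMPP-gated (lymphoid-primed progenitors) with 2 of Dntt, Flt3, Satb1, Il7r, Rag1 and Ccr9, and GMP-gated with 10 UMIs of Mpo, Elane, Prtn3, Ctsg and Ms4a3. The gates for megakaryocyte, erythroid, B, T/NK and MHC class II genes and for neutrophil granule genes worked alike. A gated class is a range of marker counts and not a cell type, and the same gate need not select like cells in both libraries. The level in a class uses all UMIs of its cells. Of the WT cells 536 and of the cKO cells 851 passed the HSC gate alone, with 2336 and 2971 at or just below its cut. The counts were 756 and 150 for LMPP, 1257 and 91 for GMP, 290 and 53 for megakaryocyte, 54 and 82 for MHC class II, and 4750 and 6966 for no lineage gate. The other gates held fewer than 50 cells in at least 1 library, the neutrophil gate 54 WT and 0 cKO cells, and cells that passed several gates (182 and 79) are not described.

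In HSC-gated cells Asns was at 11.3 CPM (6.91 to 17.5) in WT against 146 CPM (137 to 155), with a log2 ratio of 3.68. Here 6 of the 7 members that reached the minimum, all but Ass1, were higher by 2-fold or more and none was lower by that much, beside 3.12% of 9635 genes higher and 9.06% lower. Of these members Pycr1, Gpt2 and Bcat1 passed the minimum through cKO alone, so nothing is read from the count. Pycr1 was at 2.26 and 24.2 CPM (log2 ratio 3.35, 2.04 to 5.31, from 4 WT UMIs), Aldh18a1 at 16.4 and 49.6 (1.59), and Got1 at 10.2 and 26.4 (1.36). Gpt2 was at 2.26 and 11.2 CPM (2.25, 0.90 to 4.22), also from 4 WT UMIs. Bcat1 had 0 UMIs in WT and 84 in cKO, 7.22-fold higher when 3 UMIs are set in WT. By its interval it was at up to 2.09 CPM in WT, against 12.3 CPM (9.77 to 15.2) in cKO. Cth had 0 and 15 UMIs, up to 2.09 CPM in WT by its interval against 2.19 CPM (1.22 to 3.61) in cKO, so no difference was detectable, and it was under the minimum.

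In cells with no lineage gate, the largest class, 7 of the 8 members that reached the minimum were higher by 2-fold or more and none was lower by that much. Of all genes in this class, 2.75% of 9159 were higher and 6.17% lower by that much. Pycr1, Gpt2, Bcat1 and Cth again passed the minimum through cKO alone, so nothing is read from this count either. Asns was at 8.89 CPM in WT and 203 in cKO (log2 ratio 4.51), Bcat1 at 0.376 and 25.6 CPM (6.05), and Gpt2 at 0.893 and 13.7 CPM (3.92). Cth gave 2 UMIs in WT and 703 in cKO, with a log2 ratio of 6.50 (4.79 to 9.70). Cbs gave 0 and 32 UMIs there, 3.05-fold higher when 3 UMIs are set in WT. By its interval it was at up to 0.173 CPM in WT, against 0.430 CPM (0.294 to 0.607) in cKO.

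Across the 5 lineage classes and the cells in no gate, Asns was higher in cKO in all 6, with log2 ratios from 3.24 in megakaryocyte-gated to 4.59 in LMPP-gated cells. Aldh18a1 ranged from 1.39 (megakaryocyte) to 2.44 (MHC class II, from 2 WT UMIs), and Pycr1 from 1.55 in GMP-gated to 3.35 in HSC-gated cells, from 4 WT UMIs. All the intervals of these 3 genes lay above 0 in every class. Got1 ranged from 0.68 in LMPP-gated cells (0.08 to 1.27) to 1.56 in cells in no gate. Gpt2 ranged from 2.25 in HSC-gated cells, from 4 WT UMIs, to 3.92 in cells in no gate, with 0 WT and 6 cKO UMIs in MHC class II-gated cells. For Got1, the interval in MHC class II-gated cells, -0.79 to 3.40, included 0. The megakaryocyte-gated and MHC class II-gated values rest on few cells.

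The cKO level itself varied among classes for Cth and Bcat1. Cth was at 2.19 CPM (1.22 to 3.61) in HSC-gated, 9.44 (8.76 to 10.2) in ungated, 13.1 (7.78 to 20.7) in LMPP-gated and 19.99 CPM (13.5 to 28.5) in GMP-gated cKO cells. It had 0 UMIs in MHC class II-gated cells. The intervals of the HSC-gated class and of the 3 others did not overlap. Bcat1 was at 12.3 CPM (9.77 to 15.2) in HSC-gated, 27.3 CPM (19.6 to 37.1) in GMP-gated and 98.7 CPM (73.0 to 130.5) in the 68 B-gated cKO cells. It had 0 UMIs in WT cells of the HSC, LMPP, megakaryocyte and MHC class II gates. The B-gated WT cells, only 10, had 2 Bcat1 UMIs (34.6 CPM, 4.19 to 125). That interval includes the B-gated cKO level, so no difference was detectable in this gate. The median depth of the gated cKO cells was 7599 UMIs in the HSC gate, 7318.5 in the B gate and 16455 in the GMP gate. The part of depth in these differences between classes was not tested. In mitotic-gated cells, 1991 in WT and 1866 in cKO, Asns had a log2 ratio of 4.25 and in the others 4.09.

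With all UMIs, the ratio of Ass1 differed in sign among the classes. In HSC-gated cells it was at 49.2 CPM (39.4 to 60.7) in WT against 84.0 CPM (77.3 to 91.2), with a log2 ratio of 0.77, and at 74.2 and 101.1 CPM in cells in no gate, a ratio of 0.45. In GMP-gated cells it was at 133 CPM (126 to 139) in WT against 93.3 CPM (78.5 to 110.1), a ratio of -0.51 (-0.77 to -0.26). In MHC class II-gated cells the ratio was -0.999 (-1.69 to -0.32), from 32 and 48 UMIs. The interval lay above 0 in 3 classes, HSC, LMPP and no gate, and below 0 in 2, whereas the ratio in megakaryocyte-gated cells was 0.18 (-0.45 to 0.79). It was likewise lower in mitotic-gated cells, 96.2 and 88.8 CPM (-0.12, -0.21 to -0.02), and higher in the others, 86.1 and 103 CPM (0.26, 0.19 to 0.33). With cells thinned to 2000 UMIs, Ass1 was detected in 7.09% (5.07 to 9.60) of HSC-gated WT cells against 13.5% (11.3 to 16.0) in cKO. In GMP-gated cells the shares were 20.8% (18.6 to 23.2) and 18.7% (11.3 to 28.2), in MHC class II-gated cells 25.9% and 17.1%, and in LMPP-gated cells 13.4% and 15.3%, with intervals that overlapped in these 3 classes. The lower level in GMP-gated and MHC class II-gated cKO cells was thus not detectable in shares at equal depth. The mitotic ratio is about as small as the shift of 0.10 to 0.11 that TMM or median-of-ratios scaling gave the median of all genes. The spread of its WT level among the 6 classes, 49.2 to 153 CPM, was wider than that of its cKO level, 58.1 to 104 CPM.

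**Figure D5:**
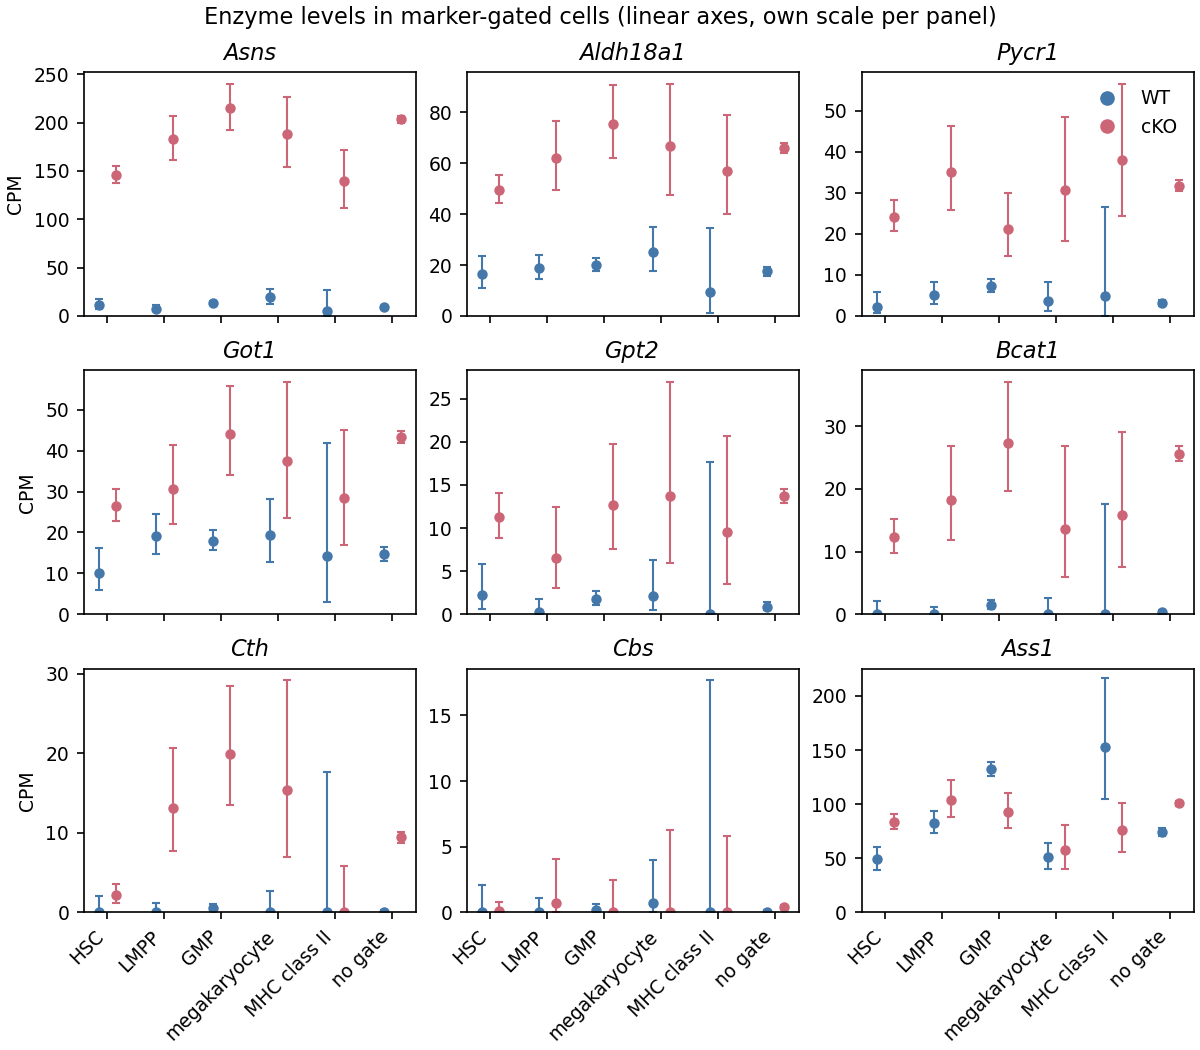
Levels of each enzyme in CPM in cells of 5 marker gates and in cells in no lineage gate, on linear axes with a scale of its own for each enzyme, WT in blue and cKO in red, with exact 95% counting intervals. The cKO points of Asns lie between 139 and 215 CPM in all 6 classes against 4.79 to 19.4 CPM in WT, whereas the points of Ass1 change order between HSC-gated and GMP-gated cells.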

How the data were processed

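There were 2 LSK libraries, 1 of each labelled genotype, sequenced cell by cell. The authors ran Cell Ranger 6.0.0 on mm10 (per the labels) and deposited UMI counts of each gene in each barcode. The labels name the v2 and the study's methods the v3 reagent kit. Reads were not analysed here.

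The study's limits were applied to each library: over 200 genes in both, under 4000 genes and 10% mitochondrial UMIs in WT, under 4500 genes and 5% in cKO, with hemoglobin UMIs held under 5% throughout. Likely doublets, scored against simulated doublets at 0.8% per 1000 barcodes, were removed (7.09% of WT and 7.41% of cKO barcodes). This kept 8148 of 8869 WT and 8484 of 9260 cKO barcodes, with 41598641 and 86872849 UMIs.

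Counts were summed over the kept cells and scaled to CPM. Levels have exact Poisson intervals, ratios use 0.5 prior counts and a conditional binomial interval, and shares use Clopper-Pearson intervals, all at 95% (Python 3.11.15, scipy 1.17.1). A fold against 0 UMIs was bounded with 3 UMIs, which leaves out the counting error of the other library and is not an exact limit. TMM factors, an alternative, came from edgeR 4.0.16. The ratio and its interval were tested on simulated counts. Gene positions are from GENCODE M21 (GRCm38) and promoters from RefSeq. Members, gene lists and gates were chosen with earlier results of these data known. The genes named are the members, the fixed list of other amino acid enzymes, the checks and response genes, and the 3 genes most alike to each member at 50 CPM or more. Some genes of the comparison list are counted but not reported here by name.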

Additional observations from a re-analysis of the deposited data

Results flagged for a closer look

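The log2 ratio of Ass1, cKO over WT, went in opposite directions among the marker-gated classes of cells, and this difference between classes was not tested, since each class has 1 library per genotype. It was 0.77 in HSC-gated and 0.33 in LMPP-gated cells, and -0.51 in GMP-gated and -0.999 in MHC class II-gated cells. These classes held 536, 756, 1257 and 54 WT cells and 851, 150, 91 and 82 cKO cells, so the negative ratios rest on few cKO cells in the GMP gate and few cells of both libraries in the MHC class II gate. These ratios use all UMIs, in classes of unequal depth (medians of 8801 WT and 16455 cKO UMIs in the GMP gate). At 2000 UMIs per cell, Ass1 was detected in 7.09% and 13.5% of HSC-gated cells, with intervals that did not overlap. The intervals overlapped for LMPP (13.4% and 15.3%), GMP (20.8% and 18.7%) and MHC class II (25.9% and 17.1%), so the opposite direction was not detectable in shares at equal depth. The gates need not select like cells in both libraries.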

How the results depend on the processing

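The number of the 9 enzymes higher by 2-fold or more was 7, and from 5 (minimum of 20 CPM, 6 tested) to 8 (no minimum, 9 tested) over 15 alternatives fixed at the start. The 8 other than Cbs had a higher share of cells with a UMI in cKO in each of 4 alternatives. Cbs was in 0 WT cells at 1000 and 2000 UMIs. The median log2 ratio of 2.83 was 3.22 with each cell scaled before averaging, 3.30 with cells thinned to 2000 UMIs and 3.21 without mitotic-gated cells, and from 2.81 to 2.93 otherwise except within gates. It was 1.92 in HSC-gated cells over 8 values, with Bcat1 and Cth at their bounds (3 UMIs set in WT) and no value for Cbs. In cells in no lineage gate it was 3.33 with Cbs at its bound. With fitted ratios in place of the bounds these were 2.25 and 3.92. Counts over all genes were 873 lower in HSC-gated cells, 2470 higher and 2518 lower with no minimum, and 136 higher and 234 lower at 20 CPM, since these change the cells or the genes tested, against 265 and 474. Under these 15, members kept their direction where there was a value, except that Cth in HSC-gated cells and Cbs after thinning, with 0 WT UMIs, had overlapping intervals and so no direction. Cth (0.37 to 6.50), Bcat1 (2.85 to 6.05) and Cbs (0.34 to 3.47) varied most, with the lowest values of Cth and Cbs those with 3 UMIs set in WT. The lowest Bcat1 value is a bound too, in HSC-gated cells. Asns ran from 3.68 to 4.51 and Ass1 from 0.14 to 0.77. A comparison at similar depth, of the deepest WT with the shallowest cKO cells, was chosen after seeing the data. There Ass1 turned to -0.57, Asns was at 3.19, Pycr1 at 1.82, Aldh18a1 at 1.40 and Got1 at 0.49. The median log2 ratio was 1.82, and 5 enzymes (7 tested) and 771 of 9292 genes were higher by 2-fold or more, with the median of all genes raised by 0.14. TMM and median-of-ratios scaling raised the median of all genes by 0.10 and 0.11. No paired analysis was possible because each group has 1 library.

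With 1 library per genotype, library, mouse, depth, cell mix and genotype cannot be told apart. Intervals cover counting error only. Cbs and the WT levels of Cth, Bcat1 and Gpt2 rest on 51 UMIs or fewer.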
